A study of Homo sapiens with 21 samples.

Results

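H3K4me3 peak calls were compared between RS4;11 cells kept without asparagine and cells kept with it. The comparison used all peaks that the deposited table lists for 3 H3K4me3 libraries of asparagine-free medium (-Asn) and 3 of complete medium (+Asn), 6 of the 21 samples of the series. A peak was called for at least 1 of these 6 libraries in 18415 of the 19279 merged regions of the table. RS4;11, an established line from acute lymphoblastic leukaemia of B-cell precursors, carries a KMT2A-AFF1 fusion, so each medium was tested on 1 line. All cultures ran for 24 h. The other samples are 3 H3K4me3 libraries of cells without asparagine that received 10 µM ferric nitrate and 0.75 µM hinokitiol, an iron carrier (-Asn+Fe), 1 input library per medium, and 3 RNA libraries per medium. The labels do not say that libraries of a medium came from separate cultures, so p-values may measure technical spread alone.

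H3K4me3, the trimethylated form of lysine 4 on histone H3, marks the nucleosomes around the starts of active genes. It is written by the SETD1 and KMT2 complexes and erased by the KDM5 enzymes, which are JmjC dioxygenases that need ferrous iron, oxygen and 2-oxoglutarate. Lack of an amino acid activates the kinase GCN2, which phosphorylates eIF2 and lets the cell translate ATF4, a transcription factor for amino acid transport, amino acid synthesis and tRNA charging genes. Lymphoblastic leukaemia cells often make little asparagine synthetase, which is why asparaginase is used against this disease.

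The mark changed in extent at promoters of very different base composition, and promoters of some of the genes named below are shown for that reason. They run from 250 bases before the RefSeq start to 50 after it, in the direction of transcription (RefSeq, GRCh38.p14). The RefSeq promoters used held none for SLC7A11, LMO2 or BMP2, so these are not shown. DLX2 and RETN lay in regions that were wider without asparagine, BID and CD48 in narrower ones, and C15orf62 and TREML2 in regions with a peak in every -Asn and no +Asn library. CHAC1, also wider, was added after its values were seen because its promoter holds the composite element TGATGNAA bound by ATF4 with C/EBP partners. Among the wider amino acid response genes listed below, only JDP2, GARS1 and CEBPG also had a RefSeq start with this element. PPP1R15A, WARS1, TRIB3 and most others with a RefSeq start had none. Capitals mark matches, on either strand, to TGATGNAA and to CCAAT, the element bound by NF-Y.
DLX2: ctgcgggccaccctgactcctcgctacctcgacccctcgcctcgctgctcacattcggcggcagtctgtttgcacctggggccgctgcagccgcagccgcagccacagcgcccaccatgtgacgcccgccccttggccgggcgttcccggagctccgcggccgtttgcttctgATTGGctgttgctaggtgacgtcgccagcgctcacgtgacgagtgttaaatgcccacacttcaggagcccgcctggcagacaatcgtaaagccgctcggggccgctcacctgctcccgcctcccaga
RETN: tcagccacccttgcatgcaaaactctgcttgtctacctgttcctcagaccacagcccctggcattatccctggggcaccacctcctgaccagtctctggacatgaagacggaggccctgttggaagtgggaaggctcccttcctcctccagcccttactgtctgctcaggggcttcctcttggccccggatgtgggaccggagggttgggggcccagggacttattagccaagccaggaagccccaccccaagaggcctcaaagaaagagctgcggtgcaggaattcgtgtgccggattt
CHAC1: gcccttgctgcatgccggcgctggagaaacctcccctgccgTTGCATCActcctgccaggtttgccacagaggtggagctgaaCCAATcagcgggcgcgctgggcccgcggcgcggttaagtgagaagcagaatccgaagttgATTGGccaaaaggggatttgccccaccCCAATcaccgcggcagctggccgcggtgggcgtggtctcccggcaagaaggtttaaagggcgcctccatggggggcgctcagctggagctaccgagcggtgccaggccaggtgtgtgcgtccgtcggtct
BID: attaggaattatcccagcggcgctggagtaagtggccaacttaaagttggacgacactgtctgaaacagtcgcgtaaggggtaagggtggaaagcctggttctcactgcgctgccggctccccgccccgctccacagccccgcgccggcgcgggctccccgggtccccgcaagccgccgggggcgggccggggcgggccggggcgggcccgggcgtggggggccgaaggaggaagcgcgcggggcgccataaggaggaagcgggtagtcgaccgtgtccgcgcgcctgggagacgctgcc
CD48: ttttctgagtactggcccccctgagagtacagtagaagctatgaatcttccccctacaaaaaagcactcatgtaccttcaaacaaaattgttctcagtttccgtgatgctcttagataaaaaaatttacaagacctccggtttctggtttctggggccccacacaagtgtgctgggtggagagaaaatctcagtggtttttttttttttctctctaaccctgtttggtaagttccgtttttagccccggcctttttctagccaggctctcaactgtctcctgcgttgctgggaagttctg
C15orf62: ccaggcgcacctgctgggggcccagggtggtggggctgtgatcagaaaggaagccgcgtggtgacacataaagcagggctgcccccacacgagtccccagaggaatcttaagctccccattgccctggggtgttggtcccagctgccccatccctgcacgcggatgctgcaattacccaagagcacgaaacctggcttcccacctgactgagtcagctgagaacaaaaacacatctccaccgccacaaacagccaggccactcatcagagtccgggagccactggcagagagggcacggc
TREML2: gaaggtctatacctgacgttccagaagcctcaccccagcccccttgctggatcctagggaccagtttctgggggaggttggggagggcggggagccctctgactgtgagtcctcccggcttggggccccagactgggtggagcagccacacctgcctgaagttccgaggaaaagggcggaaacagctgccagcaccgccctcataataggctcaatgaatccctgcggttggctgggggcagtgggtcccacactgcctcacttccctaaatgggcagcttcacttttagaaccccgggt

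The DLX2 promoter is at chr2:172102851-172103150 on the minus strand, RETN at chr19:7668799-7669098 on the plus strand and CHAC1 at chr15:40953221-40953520 on the plus strand. BID is at chr22:17774420-17774719, CD48 at chr1:160711773-160712072 and TREML2 at chr6:41201100-41201399, all on the minus strand, and C15orf62 is at chr15:40769730-40770029 on the plus strand. GC content was 67.7% in DLX2 and 71.7% in BID, against 44.7% in CD48. The observed over expected CpG ratio was 0.900 in DLX2 and 0.976 in BID, and 0.226 in RETN, 0.284 in TREML2, 0.337 in CD48 and 0.352 in C15orf62. Both CpG-rich and CpG-poor promoters were among the changed ones in either direction. In CHAC1 the TGATGNAA match began 209 bases before the start (position -209) and 3 CCAAT matches began at -167, -107 and -80, with no overlap between them. TGATGNAA was found in 8 of 202 RefSeq starts (3.96%) in regions 1.5-fold or more wider, in 2.17% of starts in wider regions and 0.565% in narrower ones, against 1.38% of starts in all regions tested for width and 2.703% of all 21608 starts. CCAAT was found in 32.1% of starts in wider regions and 37.3% in narrower ones, against 35.3% in all regions tested for width. A match is only a run of letters, and starts without H3K4me3 held TGATGNAA more often, at 4.37%.

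More regions carried a peak without asparagine. The -Asn libraries had a peak in 15554, 17448 and 16507 regions, against 15141, 15230 and 14741 in the +Asn libraries. All -Asn libraries lay above all +Asn libraries, with means of 16503 ± 947 in -Asn and 15037 ± 260 in +Asn (SD, n = 3 each). The exact two-sided permutation test gave p = 0.1, the smallest value that 3 against 3 libraries allow. In bulk samples such as these, a change in every cell and a change in a share of the cells cannot be told apart, and fewer cells of a type cannot be told apart from less signal per cell.

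The length of genome under peaks differed in the same direction. Peaks covered 26.4, 30.1 and 28.1 Mb in the -Asn libraries and 25.98, 26.2 and 25.1 Mb in the +Asn libraries (exact permutation p = 0.1). Over the 13883 regions called in all 9 H3K4me3 libraries, the median covered length was 1677, 1840 and 1761 bp in -Asn, against 1665, 1672 and 1619 bp in +Asn (exact permutation p = 0.1). The groups did not overlap, but -Asn replicate 1 stood only 5 bp above the highest +Asn library. Over the regions each library itself called, the mean covered length was 1708 ± 16.0 bp in -Asn and 1712 ± 8.82 bp in +Asn (SD, n = 3 each, exact permutation p = 0.9), and the groups overlapped. The number of reads per ChIP library cannot be read from the table, so its part in these values was not tested.

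**Figure D1:**
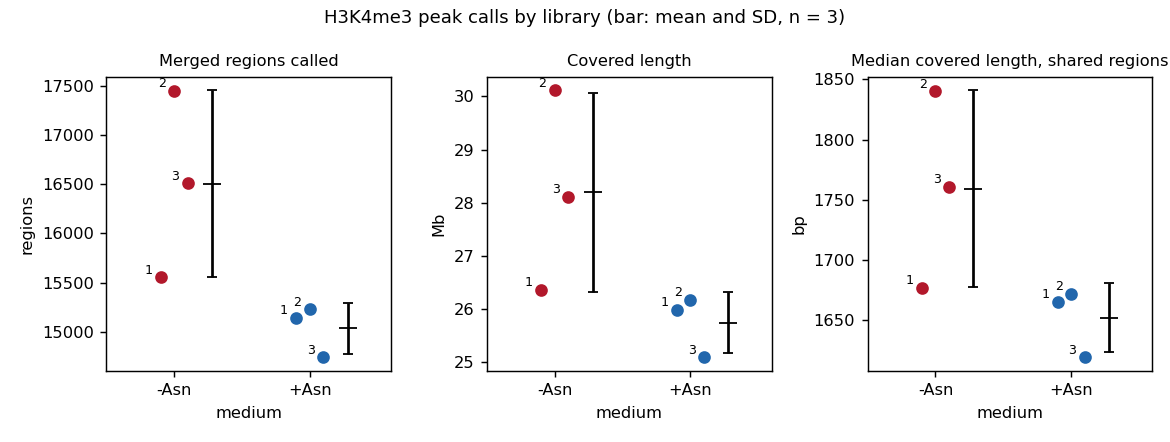
Regions called (left), summed covered length in Mb (middle) and median covered length in bp over the 13883 regions called in all 9 H3K4me3 libraries (right), for -Asn and +Asn. Points are libraries with their replicate number, bars are mean and SD (n = 3), and the axes do not start at 0; all 3 -Asn libraries lie above all 3 +Asn libraries in each panel, and -Asn replicate 1 lies nearest to +Asn.

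Regions that appeared without asparagine outnumbered those that disappeared by about 10 to 1. Gained regions, called in 3 of 3 -Asn and 0 of 3 +Asn libraries, numbered 552 (2.86% of 19279), and lost regions, with the opposite pattern, numbered 55 (0.285%). Leaving out 1 library cannot lower these counts, since fewer libraries must agree. They then ranged from 579 to 1054 gained regions (1054 without -Asn replicate 1). Lost regions ranged from 58 to 105 (105 without -Asn replicate 2). Most regions, 15121, were called in equal numbers of libraries of both media. These include 13975 called in all 6 libraries and 864 called in none of them. The gained regions were short, with a median covered length of 457 bp in -Asn and a range of 229 to 2761 bp, and the lost ones had a median of 411 bp in +Asn. In the -Asn+Fe libraries 313 of the gained regions were called in 3 of 3, 202 in some and 37 in none. Of the lost regions 5 were called in all 3 -Asn+Fe libraries and 29 in none.

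Gained regions lay mostly away from coding promoters. They made up 74 of 9802 coding promoter regions (0.755%), 50 of 1573 promoters of noncoding genes only (3.18%), 286 of 5774 regions inside genes (4.95%) and 142 of 2130 between genes (6.67%). A promoter region here is one that the outermost start of some gene meets within 1 kb. Lost regions numbered 2, 2, 37 and 14 in the same 4 classes. Regions outside coding promoters are also shorter, with a median of 878 bp between genes and 1884.5 bp at coding promoters, over the mean of the 6 libraries in regions called in all 9.

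The longest gained coding promoter was that of C15orf62 (chr15:40769022-40771028, hg38), an open reading frame of little known function. It was covered over 1269, 1651 and 1444 bp in -Asn and had no peak in any +Asn library. TREML2, a receptor of myeloid and lymphoid cells of the TREM family (chr6:41199970-41201464), had 980, 1409 and 1375 bp in -Asn and none in +Asn. Its RNA level was 30.3 ± 0.754 CPM without asparagine (-Asn), against 0.295 ± 0.0688 CPM in +Asn (SD, n = 3 each), a log2 difference of 6.66 (edgeR adjusted p = 1.29e-15). Both promoters were among the CpG-poor sequences shown above.

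SPNS3, a member of the spinster transporter family, had 998, 1255 and 976 bp in -Asn, and its RNA was 3.86 higher on the log2 scale (edgeR adjusted p = 3.65e-12). SLC16A3, which encodes the lactate exporter MCT4, had 763, 795 and 912 bp in -Asn and RNA higher by 1.75 (edgeR adjusted p = 0.000576). None of these promoters had a peak in a +Asn library. The other gained promoters among the 8 longest were those of KASH5, CCDC154, KCNK12 and SEMA4A, with means of 839 to 1123 bp in -Asn. Their RNA log2 differences were 1.28 to 2.90, all called. RNA was low in both media at KCNK12, which held the 2.90 (0.650 CPM in -Asn and 0.0833 CPM in +Asn). It was also low at SLC16A3 (1.13 CPM in -Asn and 0.332 CPM in +Asn). The SEMA4A width is for its outer start. Another region, at its RefSeq start, had 592, 824 and 905 bp in -Asn and 261 bp in +Asn replicate 1. Over all gained coding promoters, 49 of 70 genes had enough RNA to test, of which 33 were called higher and 7 lower (background: 31% of 17939 genes called higher and 30.2% lower). RNA differences are relative to the TMM scale. Scaled by library totals alone, the median log2 difference over all genes was 0.25 in place of 0.04, and 7343 genes were higher and 3836 lower in place of 5558 and 5413, so that 65.7% in place of 50.7% of calls were higher.

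The 2 lost coding promoters were that of H2BC3, a replication-dependent histone H2B gene, and one within 1 kb of the outer starts of both DDX19B, an mRNA export helicase, and AARS1, the cytosolic alanyl-tRNA synthetase. They were short, at 412 ± 52.2 bp and 310 ± 34.7 bp in +Asn (SD, n = 3 each), and the RNA of H2BC3 and DDX19B was not called different between -Asn and +Asn (edgeR adjusted p = 0.439 and 0.348), although DDX19B was called higher when scaled by library totals (0.30, edgeR adjusted p = 0.00363). AARS1 RNA was higher by 1.51 on the log2 scale, and a neighbouring region over its start was called in all 6 libraries and not called different in width (log2 0.16, limma adjusted p = 0.0914). The region at the RefSeq start of DDX19B was likewise kept in all 6 libraries and not called different (log2 -0.02, limma adjusted p = 0.838). H2BC3 belongs to a multigene family with near-identical copies, so its counts are uncertain.

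The 5 longest gained regions outside promoters all lay inside genes, and those in INHBE and HERPUD1 are described with their genes, a choice made after their values were seen. The promoter class uses outermost gene starts only, so a region over an inner start counts as inside a gene. The region inside INHBE, the inhibin beta E subunit and an ATF4 target, was covered over 1781, 2685 and 2077 bp in -Asn with no peak in +Asn. It lay about 2252 bp from the outermost start of the gene (chr12:57454575-57457291). INHBE RNA reached 37.3 ± 1.29 CPM in -Asn, against 0.0746 ± 0.0183 CPM in +Asn (SD, n = 3 each). The region inside HERPUD1, a membrane protein of endoplasmic reticulum degradation, had 1745, 2346 and 1282 bp in -Asn and none in +Asn (chr16:56935764-56938207). It began close to where the region at the HERPUD1 start ended, and that region was itself wider, at 3625, 3703 and 3606 bp in -Asn and 2232, 2412 and 2454 bp in +Asn (log2 0.62, limma adjusted p = 3.38e-05). HERPUD1 RNA was 2.37 higher on the log2 scale.

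The other long gained regions lay inside MYH9, GOLIM4 and ARL15, 55470, 67725 and 287309 bp from the nearest coding start. The longest lost region lay between genes, 9098 bp from the start of EFEMP1 (chr2:55933237-55934469), and was covered over 1233, 1053 and 975 bp in +Asn and absent from all -Asn and -Asn+Fe libraries. Of 201 gained regions inside 1 tested coding gene, 40.3% lay in a gene with higher RNA and 35.3% in one with lower RNA. For 2048 regions inside genes and called in all 6 libraries, these shares were 31.4% and 41.3%.

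Where a peak was called in all 9 libraries, it was more often wider than narrower without asparagine. Of 13883 regions, 2032 were wider (14.6%) and 201 narrower (1.45%), at an adjusted p under 0.05 in limma on the log2 covered length, so 16.1% were called in either direction. The median log2 difference over all regions was 0.09, and 75.9% of regions lay above 0. When each library was centred on its own median log2 width, 1227 regions were wider (8.84%) and 1039 narrower (7.48%), so the share of calls that were wider was 54.1% in place of 91.0%. Wider regions numbered 928, 1066 and 1114 without -Asn replicate 2, -Asn replicate 3 and +Asn replicate 3, and narrower ones 104, 108, 109 and 117 without -Asn replicate 3 and +Asn replicates 1, 2 and 3. Directions below are given without centring, and calls at named genes that do not survive it are marked. Changes of 2-fold or more were seen at 204 wider and 4 narrower called regions. In 32.7% of the 13883 regions all -Asn widths lay above all +Asn widths, and in 4.37% all lay below.

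The relative change was larger at short regions. The median log2 difference was 0.30 for regions under 500 bp, 0.27 from 500 to 1000 bp, 0.09 from 1000 to 2000 bp, 0.05 from 2000 to 4000 bp and 0.03 over 4000 bp. In base pairs the median difference was 85.3, 138, 98.5, 82.0 and 117 bp in the same order, with no such trend. Calls of narrower regions ran the other way, at 0.228% of regions under 500 bp and 4.33% of those over 4000 bp. Per chromosome the share of wider regions stood between 12.2% on chromosome 21 and 18.3% on chromosome 14.

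**Figure D2:**
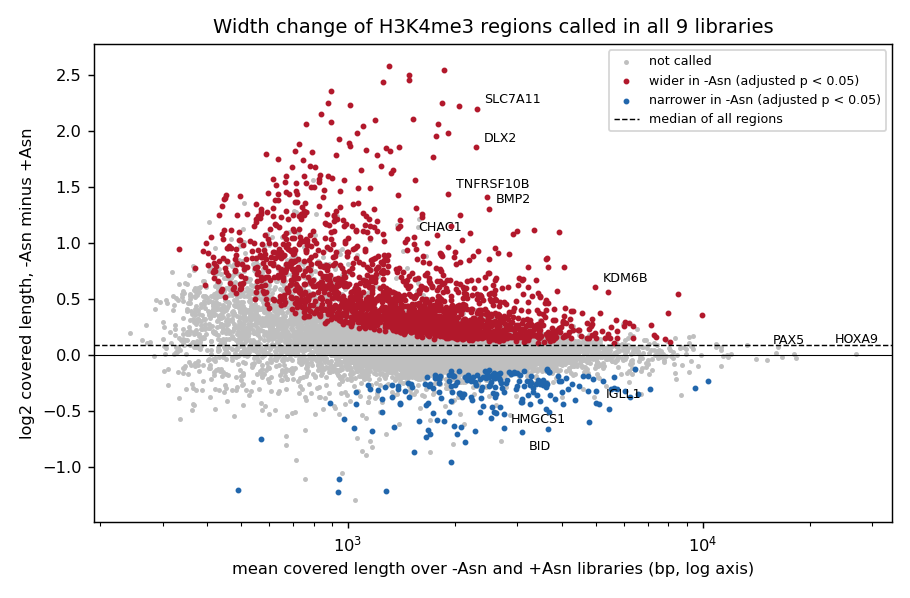
Log2 difference in covered length, -Asn minus +Asn, against the mean covered length in bp (log axis) for 13883 regions, with called regions coloured. The widening extends up to 2.58 on the log2 scale at regions of 1000 to 2000 bp, while the broad HOXA9 and PAX5 regions lie at 0.01 and 0.00.

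Location moved with the size of the change. Between genes 21.7% of regions were wider and the median log2 difference was 0.23, inside genes 18.9% and 0.14, at noncoding promoters 19.0% and 0.12, and at coding promoters 12.3% and 0.07. In each library the median width between genes was set against that at coding promoters. This ratio was 0.479, 0.539 and 0.518 in -Asn and 0.445, 0.439 and 0.418 in +Asn, higher in every -Asn library (exact permutation p = 0.1, the smallest possible). Regions between genes are also the shortest, and the part of length in this difference was not tested.

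At promoters the upstream side reached further out. Over 6457 promoter regions of a single gene, the median distance from the gene start to the upstream edge was 511, 572 and 542 bp in -Asn and 481, 486 and 465 bp in +Asn (exact permutation p = 0.1), and the groups did not overlap. On the downstream side it was 1142, 1227 and 1183 bp in -Asn and 1156, 1166 and 1135 bp in +Asn (exact permutation p = 0.3), and the groups overlapped. Narrower regions, whose widths were chosen by the same edges, receded mostly on the gene side: of 93, the median shift was -446 bp downstream and -32 bp upstream, and 78 had their larger shift downstream. The 902 wider ones shifted by 140 bp upstream and 192 bp downstream.

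The 10 largest changes at coding promoters ran from 1.26 to 2.199 on the log2 scale. SLC7A11 encodes the cystine importer xCT, which feeds glutathione synthesis. Its promoter region (chr4:138239046-138243103) was covered over 3663, 3968 and 3630 bp in -Asn, against 1258, 877 and 494 bp in +Asn. The 3 -Asn libraries were close to each other and far above +Asn, with a log2 difference of 2.199 ± 0.25 (SE, limma adjusted p = 0.000419). The gain was on the gene side, where the edge moved by 2747 bp, and not upstream, where it moved by -8 bp.

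DLX2, a homeobox gene of forebrain and craniofacial development, had 3568, 3584 and 3662 bp in -Asn and 1041, 1005 and 939 bp in +Asn (log2 1.86 ± 0.06, limma adjusted p = 1.65e-07). Its RNA was 14.1 ± 1.23 CPM in -Asn and 0.073 ± 0.0633 CPM in +Asn (SD, n = 3 each). BMP2, a secreted bone morphogenetic protein, had 3532, 3592 and 3523 bp in -Asn and 1476, 1437 and 1393 bp in +Asn (log2 1.31 ± 0.04, limma adjusted p = 5.64e-08). Its RNA was likewise low in +Asn, at 0.193 ± 0.0682 CPM, against 21.4 ± 1.19 CPM in -Asn. In both genes the 3 libraries of a medium differed by little, and both gained mostly on the gene side (2367 and 2067 bp).

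TNFRSF10B, the TRAIL death receptor DR5, had 2575, 2925 and 2876 bp in -Asn and 1140, 1208 and 789 bp in +Asn (log2 1.44, limma adjusted p = 0.000132). LMO2, a haematopoietic transcription cofactor, had 1660, 1917 and 1510 bp in -Asn and 624, 502 and 693 bp in +Asn (log2 1.49, limma adjusted p = 0.000126). RETN, the hormone resistin, had 1970, 2101 and 1910 bp in -Asn and 566, 687 and 688 bp in +Asn (log2 1.63, limma adjusted p = 6.74e-06). In +Asn the mean upstream edges of LMO2 and RETN, at -238 and -912 bp, lay past the outer start. In -Asn they lay before it, at 228 and 314 bp. The RNA of all 3 genes was called higher in -Asn, by 4.70, 1.31 and 2.94 on the log2 scale.

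TNRC18, TAGAP, ATP6V0A1 and EMX1 made up the rest of the 10 largest, with log2 differences of 1.83, 1.26, 1.46 and 1.35. The TNRC18 value is for its outer start, and at a RefSeq start of the gene the region was wider by 0.30. EMX1, another homeobox gene, differed from the others in its RNA, which was 0.350 ± 0.077 CPM in -Asn, against 0.221 ± 0.0674 CPM in +Asn (SD, n = 3 each) and was not called (edgeR adjusted p = 0.194). The covered length at EMX1 was 1297, 1771 and 1384 bp in -Asn and 561, 571 and 596 bp in +Asn. Its mean upstream edge was at 384 bp in -Asn and at -1116 bp, past the outer start, in +Asn.

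**Figure D3:**
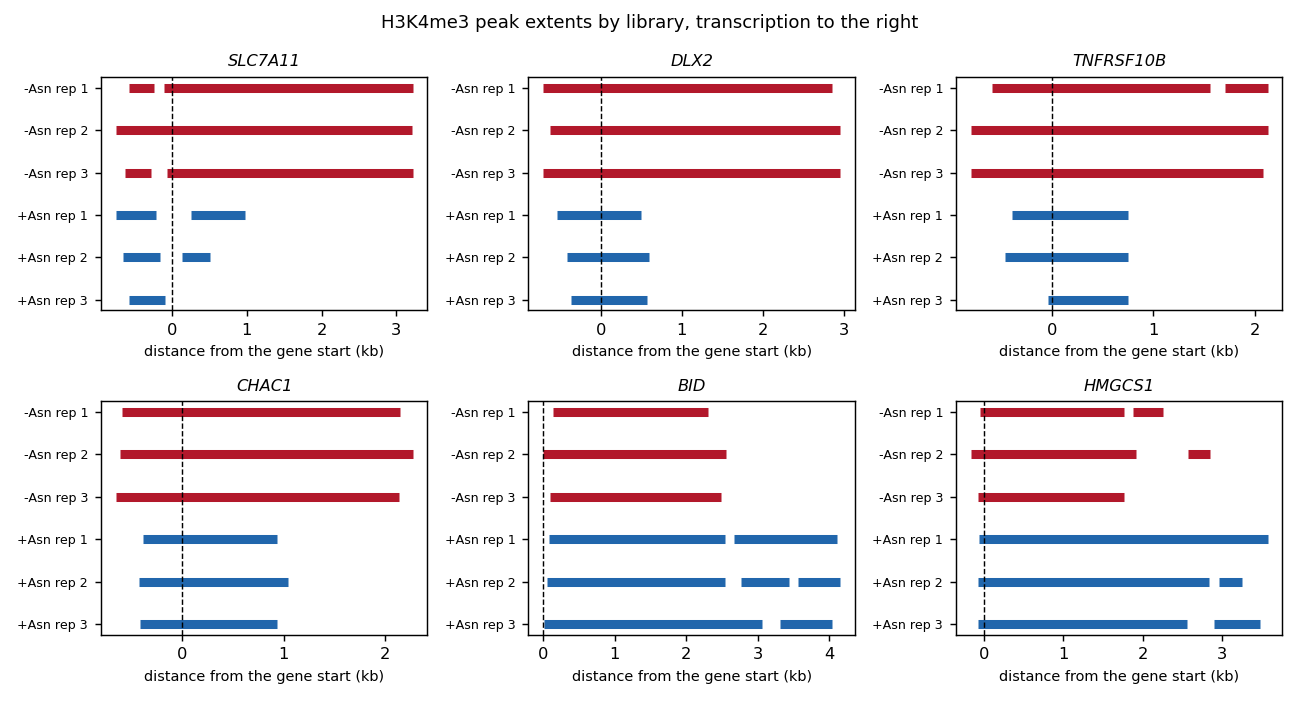
Peak extents of each -Asn (upper 3 rows) and +Asn (lower 3 rows) library around the start of 6 genes, in kb, with transcription to the right and the start as a dashed line. SLC7A11, DLX2, TNFRSF10B and CHAC1 extend further into the gene in -Asn, while BID and HMGCS1 end nearer to the start in -Asn.

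Narrower promoters were fewer and changed less. BID, a BH3-only protein that links death receptors to mitochondria, was covered over 2159, 2552 and 2396 bp in -Asn, against 3893, 3757 and 3773 bp in +Asn (chr22:17770621-17774774). The groups stood well apart, with a log2 difference of -0.69 ± 0.06 (SE, limma adjusted p = 4.63e-05), and the gene-side edge shifted by -1649 bp. BID RNA was 27.6 ± 2.06 CPM in -Asn and 96.8 ± 1.56 CPM in +Asn (SD, n = 3 each).

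CD48, a ligand on leukocytes for the receptor 2B4, had 1545, 1714 and 1440 bp in -Asn and 2887, 2920 and 2299 bp in +Asn (log2 -0.78, limma adjusted p = 0.00406). Its RNA differed by a smaller amount, with 57.5 ± 8.13 CPM in -Asn, against 79.9 ± 3.59 CPM in +Asn (SD, n = 3 each). The other 8 largest were ANGPTL2, IGFLR1, HMGCS1, MSMO1, MATR3, DCLRE1C, GCSAM and KHDC1, with log2 differences of -0.68 to -0.51. The KHDC1 value holds for its outer start, since the region at its RefSeq start was wider (log2 0.31, limma adjusted p = 0.00997). HMGCS1 and MSMO1 are enzymes of cholesterol synthesis, and DCLRE1C is the Artemis nuclease of V(D)J recombination.

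Many genes of the amino acid response had wider regions. Of 36 listed genes, 29 had a region in the width test. Of these, 18 were wider (background 14.6%), 1 narrower (background 1.45%) and 10 not called. The median log2 difference was 0.29, against 0.09 over all regions. After centring 17 were wider and 2 narrower (8.84% and 7.48% of all regions). The list and all lists below were chosen with earlier results of these data known. In each list a region counts once per listed gene, so a region shared by listed genes is counted for each of them. RNA was called higher for 30 of the 33 list genes tested (background 31%), and lower for none (background 30.2%). CHAC1, which degrades glutathione, had 2739, 2879 and 2792 bp in -Asn and 1316, 1463 and 1355 bp in +Asn (log2 1.03, limma adjusted p = 5.27e-06).

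PPP1R15A, the GADD34 subunit that returns eIF2 to its unphosphorylated form, had 4356, 4814 and 4574 bp in -Asn and 2260, 2241 and 1869 bp in +Asn (log2 1.11, limma adjusted p = 9.55e-06). WARS1, the cytosolic tryptophanyl-tRNA synthetase, had 3978, 4339 and 3905 bp in -Asn and 1923, 2016 and 1753 bp in +Asn (log2 1.10, limma adjusted p = 3.82e-06), in a region it shares with the start of WDR25. TRIB3, a pseudokinase that restrains ATF4, had 2501, 2631 and 2438 bp in -Asn and 1571, 1714 and 1595 bp in +Asn (log2 0.63, limma adjusted p = 0.000191). For these genes no -Asn value lay below a +Asn value, a pattern seen in 32.7% of all regions tested for width. VEGFA, the angiogenic growth factor, was wider by 0.30 (limma adjusted p = 0.000511), with RNA higher by 4.75.

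The region of ATF4 itself did not follow that pattern. It had 4407, 4531 and 4575 bp in -Asn and 4588, 4548 and 4563 bp in +Asn (log2 -0.02 ± 0.03, limma adjusted p = 0.718). The result for DDIT3, which encodes CHOP, depended on the start used. The region matched to its outer start had 1961, 2155 and 1910 bp in -Asn and 2079, 2022 and 2106 bp in +Asn (log2 -0.04 ± 0.07, limma adjusted p = 0.695). It lay upstream and did not cover that start, with its gene-side edge at -451 bp in -Asn and -463 bp in +Asn. The region over the RefSeq start (chr12:57517932-57520719), shared with MBD6 and added after the data were seen, had 2173, 2736 and 2450 bp in -Asn and 1549, 1567 and 1584 bp in +Asn (log2 0.64 ± 0.07, limma adjusted p = 0.000379). The media overlapped at the upstream region and stood apart at the RefSeq start. DDIT3 RNA was 170 ± 28.8 CPM in -Asn and 6.38 ± 0.215 CPM in +Asn (SD, n = 3 each). ASNS, asparagine synthetase, had no region at any start used, and its RNA was 0.352 ± 0.0365 CPM in -Asn and 0.332 ± 0.143 CPM in +Asn (edgeR adjusted p = 0.878).

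SLC3A2, the heavy chain that pairs with SLC7A11, was the narrower member, but only at its outermost start. There it had 3536, 3683 and 3478 bp in -Asn and 4392, 4762 and 4288 bp in +Asn (log2 -0.33, limma adjusted p = 0.00126). At another RefSeq start of the same gene (chr11:62879898-62884314) it had 4087, 4074 and 4046 bp in -Asn and 2338, 2471 and 2274 bp in +Asn (log2 0.79, limma adjusted p = 7.28e-06). Both pairs of groups stood apart, in opposite directions, and SLC3A2 RNA was higher by 2.23 on the log2 scale.

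Among p53 targets and death receptor genes 12 of 21 regions were wider (background 14.6%) and 1, BID, narrower (background 1.45%). The median log2 difference was 0.28. After centring 11 were wider and 1 narrower (8.84% and 7.48% of all regions). CCNG1, cyclin G1, had 2216, 2249 and 2060 bp in -Asn and 1668, 1505 and 1148 bp in +Asn (log2 0.61, limma adjusted p = 0.0077). CDKN1A, the p21 inhibitor of cyclin-dependent kinases, had 3888, 3933 and 3799 bp in -Asn and 2875, 3049 and 2855 bp in +Asn in a region shared with the noncoding gene DINOL (log2 0.41, limma adjusted p = 0.000361). The groups were apart for both genes, with -Asn above +Asn, as in 32.7% of all regions tested for width.

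**Figure D4:**
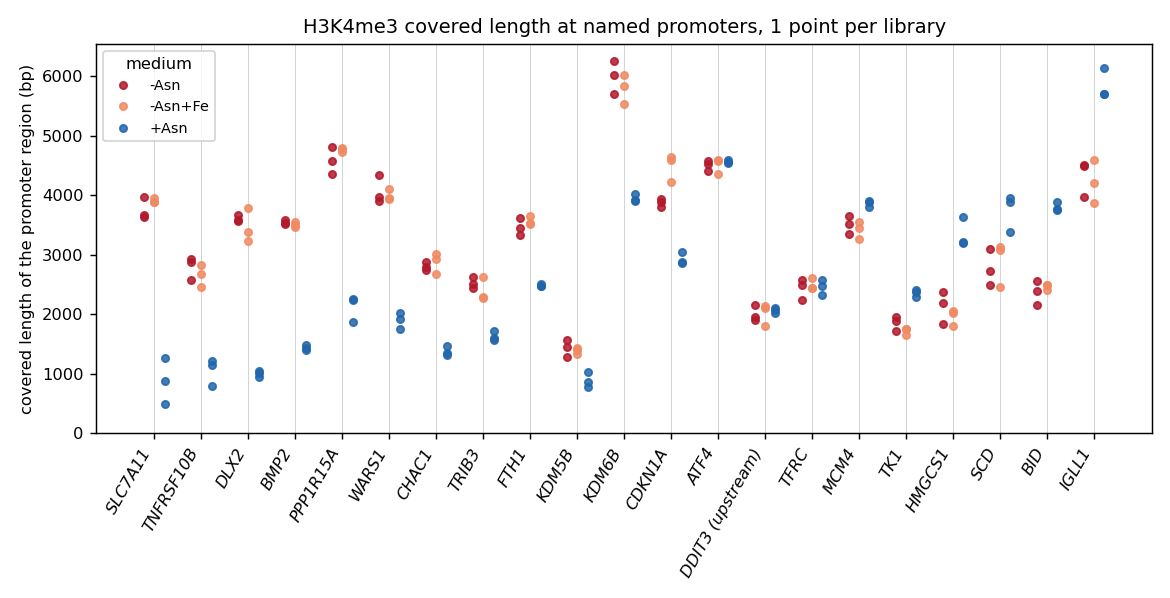
Covered length in bp of 21 named promoter regions, 1 point per library, for -Asn, -Asn+Fe and +Asn. From SLC7A11 to CDKN1A the -Asn points lie above +Asn, at ATF4, TFRC and the region upstream of DDIT3 they overlap, and from MCM4 to IGLL1 they lie below, with the MCM4 difference not called (limma adjusted p = 0.052).

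Chromatin and iron genes were mixed. Of 21 JmjC and LSD demethylase regions 3 were wider and none narrower, a share near the 14.6% of all regions called wider. KDM5B, an H3K4 demethylase, had 1287, 1441 and 1570 bp in -Asn and 778, 1030 and 852 bp in +Asn (log2 0.70, limma adjusted p = 0.00296). KDM6B, an H3K27 demethylase, had 5708, 6258 and 6018 bp in -Asn and 3925, 4015 and 3900 bp in +Asn (log2 0.60, limma adjusted p = 2.65e-05), in a region whose far end holds the RefSeq start. The region lay almost wholly upstream of the outer start, with its mean gene-side edge at 20 bp in -Asn and -1583 bp in +Asn. KDM5C, an X-linked H3K4 demethylase, was wider by 0.25 (limma adjusted p = 0.00804), and KDM5A had no region at the starts used.

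Of 20 H3K4 methyltransferase complex regions, NCOA6 and WDR82 were called wider (0.24 and 0.20), against 14.6% of all regions. Neither was called after centring, when 2 other members were narrower (7.48% of all regions). WDR82 lost its call in 7 of the settings run, and at its RefSeq start the difference was 0.08 and not called. KMT2A, KMT2D and SETD1A stood at 0.06, 0.00 and -0.02 and were not called. Of 17 iron genes 3 were wider, a share near that of all regions (14.6%), and none was narrower, while 2 were narrower after centring (7.48% of all regions). The wider ones were FTH1, the ferritin heavy chain, with 3331, 3614 and 3459 bp in -Asn and 2471, 2517 and 2475 bp in +Asn (log2 0.48, limma adjusted p = 4.27e-05), the zinc and iron importer SLC39A14 and the IRP2 regulator FBXL5. FTL, the ferritin light chain, had overlapping groups (log2 0.37, limma adjusted p = 0.0662). TFRC, the transferrin receptor, had 2232, 2582 and 2497 bp in -Asn and 2573, 2471 and 2317 bp in +Asn (log2 -0.01 ± 0.06, limma adjusted p = 0.917), although its RNA was 106 ± 9.55 CPM in -Asn and 599 ± 14.7 CPM in +Asn (SD, n = 3 each).

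Genes of DNA replication showed small width differences beside large RNA differences. RNA was lower for all 33 S phase and E2F genes tested (background 30.2%), with a median log2 difference of -1.70. Of 33 regions 3 were narrower (background 1.45%), none was wider, and the median width difference was -0.04. TK1, thymidine kinase, had 1714, 1892 and 1961 bp in -Asn and 2295, 2372 and 2416 bp in +Asn (log2 -0.35, limma adjusted p = 0.00376), in a region shared with AFMID. UNG, uracil-DNA glycosylase, was narrower by -0.18 (limma adjusted p = 0.0352) with RNA lower by -3.31, but it lost its width call in 7 of the settings run. E2F2 was called narrower by covered length (-0.48), but by the outer span of its peaks the difference was 0.02, and its RNA was too low to test. MCM4 (-0.14) and CCNE2 (-0.12) were not called. With centring 12 of the 33 were narrower, CCNE2 and MCM4 among them, beside 7.48% of all regions. CCNE2 shares its region with NDUFAF6 and MCM4 with PRKDC.

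Of 25 regions at cholesterol and fatty acid synthesis genes 8 were narrower, beside 1.45% of all regions, with none wider and a median of -0.08. RNA was lower for 25 of the 26 genes, beside 30.2% of all genes tested. HMGCS1, which makes HMG-CoA for sterol synthesis, had 2191, 2373 and 1844 bp in -Asn and 3644, 3206 and 3219 bp in +Asn (log2 -0.66, limma adjusted p = 0.00152). MSMO1 and the stearoyl-CoA desaturase SCD differed by -0.60 and -0.44. After centring 17 of the 25 were narrower, beside 7.48% of all regions.

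In the remaining lists few members were called, and the shares of all regions to set beside them are 14.6% wider and 1.45% narrower, or 8.84% and 7.48% after centring. Of 24 G2 and mitosis regions 3 were wider (UBE2C, TPX2 and CDC20, by 0.35, 0.30 and 0.27) and none narrower, a share below that of all regions. Of 16 heat shock chaperone regions HSPE1 (-0.43) and HSPA8 (-0.20) were narrower and none wider. After centring 6 were narrower, while HSPA8 lost its call in 8 of the settings run. With regions at RefSeq starts 4 genes were narrower, among them HSPD1 and HSPE1, which then share the same region. Of 24 ribosome biogenesis and MYC regions 2 were wider (MXI1 by 0.46 and NOP58 by 0.16, the second not after centring) and none narrower, while after centring 1 was wider and 4 narrower. MYC itself stood at 0.02. Of 10 housekeeping regions B2M and YWHAZ were wider (0.19 and 0.15) and none narrower, while after centring none was wider and 4 were narrower. B2M lost its call in 8 of the settings run. GAPDH was not called (-0.07), and ACTB had no region at the starts used.

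At markers of cell identity few promoters were called. Of 23 precursor B cell markers 21 had a region, against 3 of 10 T cell markers (CD8A, BCL11B and GATA3), 2 of 12 myeloid and erythroid markers (CD33 and CEBPE, each called in 2 of 3 -Asn and 0 of 3 +Asn libraries) and 1 of 12 non-blood markers (COL1A1). No region was found at the T cell receptor subunits CD3D, CD3E and CD3G, at MPO or at GATA1. IGLL1, a surrogate light chain of the pre-B receptor, was the called precursor B member of 19, with 3966, 4492 and 4505 bp in -Asn and 6134, 5701 and 5711 bp in +Asn (log2 -0.44, limma adjusted p = 0.0028). After centring 5 of the 19 were narrower (7.48% of all regions), and with regions at RefSeq starts 1 of 20 was wider and 2 narrower. PAX5 and RAG2 stood at 0.00 and -0.08 and were not called, RAG2 with RNA lower by -1.96. None of the T cell and non-blood regions was called.

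The broad domains at targets of the KMT2A fusion overlapped in length between the media. The region over HOXA3, HOXA6, HOXA7 and HOXA9, the longest of those tested (chr7:27147590-27174990), was covered over 26920, 27232 and 27315 bp in -Asn and 27043, 27008 and 26919 bp in +Asn (log2 0.01 ± 0.06, limma adjusted p = 0.936). MEIS1, the HOXA cofactor, had 15582, 17803 and 16640 bp in -Asn and 16869, 17323 and 16472 bp in +Asn (log2 -0.02, limma adjusted p = 0.842). The groups overlapped for both. Of 22 listed targets with a width test LMO2, HOXA11 (0.74) and CPEB2 (0.15, not after centring) were wider, beside 14.6% of all regions. None was narrower. HOXA3, HOXA6, HOXA7 and HOXA9 are each counted among the 22, though they share the same region. After centring 2 were wider and 3 narrower (8.84% and 7.48% of all regions). Of 9 genes listed for being near silent in +Asn RNA, 5 had a region at a start, and the pair with a width test, DLX2 and CHAC1, was wider; that list was chosen from RNA of this series and is no independent evidence.

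Across genes the width difference followed the RNA difference loosely. A width and an RNA test were available for 11908 genes in 9348 regions, 4950 of which shared a region with another such gene. The median log2 width difference was 0.12 for genes with higher RNA, 0.06 for genes not called and 0.02 for genes with lower RNA. After centring it was 0.03 for higher and -0.07 for lower RNA. For RNA higher by 4-fold or more the median was 0.28 and 216 of 403 genes lay in a wider region, and for RNA lower by 4-fold or more it was -0.05 and 14 of 104 genes lay in a narrower one. Of all 11908 genes 11.9% lay in a wider and 1.57% in a narrower region.

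Read from the side of the mark, 62.6% of the 1412 genes at wider regions had higher RNA and 13.7% lower RNA. At narrower regions 8.02% of 187 genes had higher RNA and 69.0% lower RNA, against 31.6% and 36.9% of all 11908. Pearson's r across genes was 0.42 and Spearman's rho 0.39, as a description, since genes of a library are not independent. Against the +Asn mean, r was 0.39, 0.39 and 0.40 for -Asn replicates 1, 2 and 3 taken alone. TFRC was an example of a large RNA difference without a called width difference, and EMX1 was one of the reverse. CCNE2, with RNA lower by -3.28, was not called in width either, but its groups did not overlap and it was called narrower after centring (-0.21, limma adjusted p = 0.019).

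**Figure D5:**
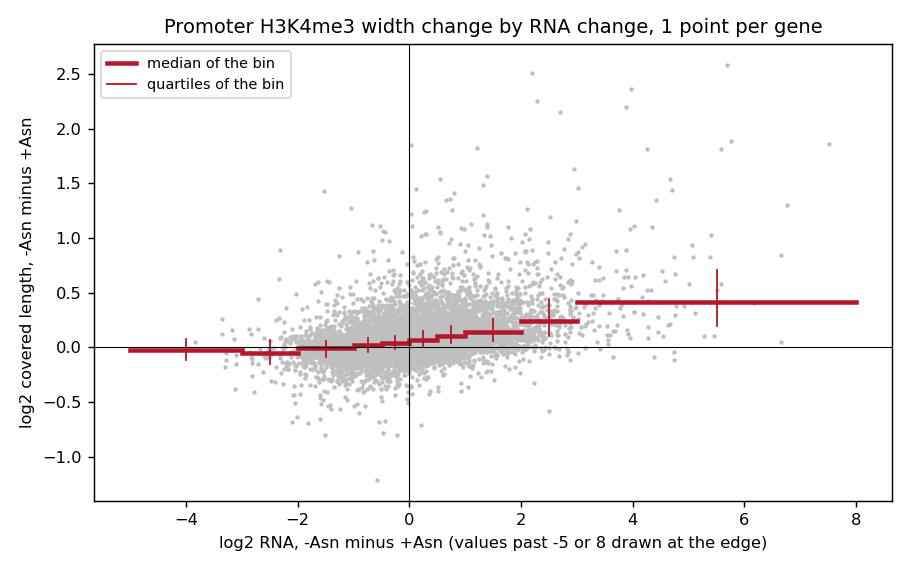
Log2 difference in covered length against log2 difference in RNA, both -Asn minus +Asn, 1 point per gene (11908 genes), with bars for the median and lines for the quartiles of each RNA bin. The median width difference stands at -0.02 for RNA below -3 (13 genes) and at -0.05 for RNA from -3 to -2. It is near 0.05 just below no RNA difference and 0.42 for RNA above 3.

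The library nearest to +Asn in the whole-library values, -Asn replicate 1, gave smaller differences at some named genes and not at others. Taken alone against the +Asn mean it gave log2 differences of 2.16 for SLC7A11, 1.84 for DLX2, 1.30 for BMP2, 0.99 for CHAC1 and -0.82 for BID. It gave 1.09 for ATP6V0A1, 0.49 for HOXA11 and 0.05 for FTL, where all 3 -Asn libraries together gave 1.46, 0.74 and 0.37, and at TFRC it was lower than every +Asn library. Its median difference at genes with higher RNA was 0.06, against 0.17 and 0.11 in -Asn replicates 2 and 3. Without it 2568 regions were wider. Between pairs of libraries, log2 widths correlated at 0.964 to 0.977 within -Asn and 0.970 to 0.973 within +Asn, and at 0.931 to 0.941 between the media.

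The -Asn+Fe libraries are set beside these values with no test. SLC7A11 had 3895, 3950 and 3884 bp, DLX2 3785, 3227 and 3390 bp, BID 2409, 2498 and 2492 bp and HMGCS1 2047, 1800 and 2018 bp in -Asn+Fe.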

How the data were processed

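H3K4me3 ChIP-seq and RNA-seq of RS4;11 cells were grouped by the labels. The deposited peak table gives positions in bp (start and end of each peak per library, merged into 19279 regions) with no reads, heights or p-values, so ChIP depth is unknown. Covered length, the signal used here, was computed from these deposited positions. Per the submitters' processing notes the build was hg38 and the ChIP tools were MACS2 2.2.7.1, Bowtie2 2.4.4 and Picard 2.18.26. The authors' deposited RNA counts per gene were made with featureCounts (Subread 1.6.5), STAR 2.7.2a and bcl2fastq, per the same notes. Peak threshold, use of inputs and strand setting were not given in the sources used here, and overlapping and near-identical genes are uncertain. The table has 13 fields under 12 names, the 4th repeating the region in all 19279 lines, so library columns are the last 9 fields. RNA libraries summed to 29362707 to 42478518 counts.

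A width is the summed peak length of a library in a region. Log2 widths of 13883 regions called in all 9 libraries were fitted with limma 3.58.1 (trend, all 9 libraries, contrast -Asn minus +Asn), and RNA with edgeR 4.0.16 quasi-likelihood (TMM, filterByExpr, robust) over 17939 genes, in R 4.3.3. Adjusted p is Benjamini-Hochberg, called under 0.05. Library values were compared by exact two-sided permutation. CPM uses TMM library sizes. Regions were matched to outer 5' ends within 1 kb, using gene models of the count table, and list genes without a match to RefSeq starts, a step added after seeing the data. Regions at RefSeq starts were also read where they differed. Python 3.11.15 (pandas 2.3.3, numpy 2.4.6, scipy 1.17.1, matplotlib 3.10.9) did the rest, and the fits were tested on simulated data. In simulated widths 46% of 1.2-fold and 84% of 1.5-fold changes were recovered, so a width not called may still differ. Alternatives covered scaling, width measure, peak and region minima, region sets, window, libraries, replicate block and, for RNA, DESeq2 1.42.0, other factors and no filter.

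The members, the 17 gene lists and the alternatives were chosen with earlier results of these data known. Named genes are the 8 longest gained or lost coding promoters, the 10 largest called width changes per direction with non-overlapping groups and at least 500 bp in both media, up to 3 called members per list, 29 genes of interest (1 more is not reported here), and the 5 longest gained and lost regions elsewhere. HERPUD1 at its start and the second SLC3A2 region were named after their values were seen.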

Additional observations from a re-analysis of the deposited data

Results flagged for a closer look

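In data outside the comparison, 39 regions were called in all 3 -Asn+Fe libraries and in no -Asn or +Asn library. Their median covered length was 334 bp. With 139 more regions called in 2 and 686 in 1 -Asn+Fe library only, such regions numbered 864. For scale, 893 regions called in at least 1 -Asn library appeared in no +Asn and no -Asn+Fe library. Of these, 37 were called in all 3 -Asn libraries, a number close to the 39.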

How the results depend on the processing

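Peaks, regions, covered length and median width stayed higher in -Asn under each alternative run, but 3 against 3 libraries cannot pass 0.05 (2 against 3 allow 0.2 at best, pairs 0.25), so these p-values say nothing of stability. Differences without 1 library ranged from 993 to 1940 regions, 1103 to 1802 peaks, 1.496 to 3.37 Mb, 67.0 to 149 bp of median width, 49.2 to 79.7 bp upstream and 10.2 to 52.7 bp downstream.

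Gained regions numbered 1206 when 2 of 3 -Asn libraries sufficed and 875 when 1 +Asn library was allowed, and lost regions 151 and 119 by the same rules and 35 with peaks of at least 500 bp. Without 1 library they ranged from 579 to 1054 gained (1054 without -Asn replicate 1) and 58 to 105 lost (105 without -Asn replicate 2, 100 without +Asn replicate 3). These sets grow by construction, since fewer libraries must agree.

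Centring gave 1227 wider and 1039 narrower regions, and regions with a single peak in each library 121 narrower. Wider regions ranged from 928 to 2568 without 1 library, with 928 without -Asn replicate 2, 1066 without -Asn replicate 3 and 1114 without +Asn replicate 3. Narrower ones ranged from 104 to 226, with 104 without -Asn replicate 3 and 108, 109 and 117 without +Asn replicates 1, 2 and 3. The median width difference by RNA became 0.028 for higher and -0.070 for lower RNA after centring, and r became 0.41 with outer spans. RNA counts without 1 library ranged from 4855 to 5534 higher and 5054 to 5636 lower, and scaling by library totals gave 7343 and 3836. Of 77 named genes with an RNA test 67 kept direction and call with that scaling, while CCNG1 became 0.033, KMT2D 0.110 and NCOA6 0.088.

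Replicate numbers did not pair the libraries: deviations of same-numbered libraries correlated at -0.0480, 0.0933 and 0.00730. With the replicate block 1448 regions were wider and 148 narrower, and RNA gave 5439 higher and 5330 lower genes.

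Of 821 results for named regions 742 kept direction and call, 57 lost the call, 6 gained it and 16 changed sign, 15 of these at regions not called in the first place. By centring, KMT2A became -0.026, KMT2D -0.089, MYC -0.070, HOXA9 -0.081 and PAX5 -0.086. Without 1 library TFRC ranged from -0.054 to 0.051, KMT2D from -0.026 to 0.035, SETD1A from -0.037 to 0.0065, MEIS1 from -0.068 to 0.028 and PAX5 from -0.023 to 0.019. E2F2 became 0.018 with outer spans. With the region at the RefSeq start, an alternative chosen after seeing the data, DDIT3 became 0.64 and KHDC1 0.31, and the amino acid, iron, cholesterol and H3K4 methyltransferase lists had 19 wider, 4 wider, 9 narrower and 1 wider members. Except where a sentence names the construction, the cause was not tested. Without read counts, a wider call and a deeper library cannot be separated here.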
